A study of Oryza sativa with 18 samples.

Results

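The module described here is a set of rice transcripts that stood higher in leaf sheath of the planthopper-resistant line NIL-BPH9 at both times of infestation, while their level in the susceptible variety 9311 stayed near its starting value. Its members were chosen by their measured values: the mean log2 signal in NIL-BPH9 had to exceed 0 h by at least 0.8 at 3 h and at 6 h, the mean in 9311 had to stay within 0.3 of 0 h at both times, and the NIL-BPH9 mean had to reach 7 at 3 h or 6 h. Probe sets mapped to exactly 1 gene were eligible, without TIFY genes, which encode jasmonate repressors and relatives. Of 22417 eligible probe sets 17 met the rule, and they stood for 16 of the 17905 genes on the array that could be named. All 17 passed the filter on low values, which 33094 of 57194 rice probe sets passed. The level of 7 in the rule lies above every array median, so this was nearly fixed in advance. Since the rule fixed the higher level in NIL-BPH9 and the flat course in 9311, the values against 0 h are given as a description. The change between 3 h and 6 h was tested, but it is built from means that the rule also filtered, in both lines, so its outcome is bounded in advance.

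The study holds 18 Affymetrix arrays of leaf sheath from rice plants at the four-leaf stage grown in a growth chamber, with 3 biological replicates in each of 6 groups. Sheath of 9311 was taken at 0 h, free of brown planthoppers, and once the insects had been on the plants for 3 h or 6 h, and NIL-BPH9 was sampled in the same way. Brown planthopper (BPH) is an insect that sucks phloem sap, and the labels call 9311 susceptible and NIL-BPH9 resistant. NIL-BPH9 is a near-isogenic line with the resistance gene BPH9, which encodes an immune receptor of the nucleotide-binding, leucine-rich repeat kind, and here it is 1 line. Uninfested sheath at 3 h or 6 h was not analysed here, so infestation and time of day cannot be told apart. Sheath was measured in bulk, so fewer cells of a type and less RNA per cell cannot be told apart either.

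The labelled tissue was set against marker genes. Of 10 leaf markers 5 were matched, and their log2 signal lay between 10.04 (GLK1) and 15.45 (CAB2R) over all arrays. The 3 phloem markers SUT1, SUS1 and SUS4 lay between 9.41 and 14.81. No root marker was matched. Log2 of the summed signal of the matched leaf markers lay between 15.98 and 16.35 over the 6 group means, that of phloem between 14.68 and 14.88, that of seed between 8.98 and 9.37 and that of pollen between 3.37 and 5.63. A prolamin of seed lay between 0.98 and 5.08 and the pollen gene OSC6 between 0.45 and 5.17, against array medians of 5.18 to 5.53, while the seed marker GLUA2 lay between 8.54 and 9.40. RNA integrity was followed by the log2 ratio of 3' to 5' signal, whose mean over 5 control transcripts was 1.69 ± 0.08 (SD, n = 3 arrays) in NIL-BPH9 at 0 h, 1.68 ± 0.03 at 3 h and 1.70 ± 0.03 at 6 h. In 9311 it was 1.61 ± 0.04 at 0 h, 1.76 ± 0.06 at 3 h and 1.77 ± 0.09 at 6 h, and its part in the flat course of the members in 9311 was not tested. This mean hides wide differences between the control transcripts. For the first actin pair the ratio was 3.50, 3.24 and 3.53 in NIL-BPH9 at 0 h, 3 h and 6 h, and 3.11, 3.42 and 3.50 in 9311. For ubiquitin it lay between -0.66 and -0.51 in all groups.

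When planthoppers pierce a rice sheath, the plant makes jasmonate, and jasmonate switches on transcription factors and enzymes of defence chemistry, among them those that make volatile terpenes. Terpenes such as linalool are built in plastids from a precursor pathway, the methylerythritol phosphate (MEP) pathway, which also feeds the side chain of chlorophyll. For 3 of the 16 member genes the gene table gives a name that tells their role: DXPS, JAMYB and SGR. The other 13 carry only a LOC number there, and no role is given for them here.

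The members were set among all transcripts that stood far higher in infested NIL-BPH9. Among eligible probe sets 146 stood at least 0.8 above 0 h at both times in NIL-BPH9 with a level of at least 7. In 9311 35 of these also stood at least 0.8 higher at both times, and 43 stood above 0.3 at both times without reaching 0.8 at both. A further 33 were above 0.3 at 1 time and within 0.3 at the other, 18 were below -0.3 at 1 or both times, and the 17 members were within 0.3 at both. With the lines exchanged, the same rule held for 4 probe sets. For falls of at least 0.8 from a 0 h level of at least 7, the mirrored rule held for 34 probe sets in NIL-BPH9 alone and for 13 in 9311 alone. Most of the 146 thus lay outside the limits of 0.3 in 9311, above or below them, at 1 or both times. How many of all eligible probe sets lay inside these limits was not counted, so nothing is read from this.

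**Figure D1:**
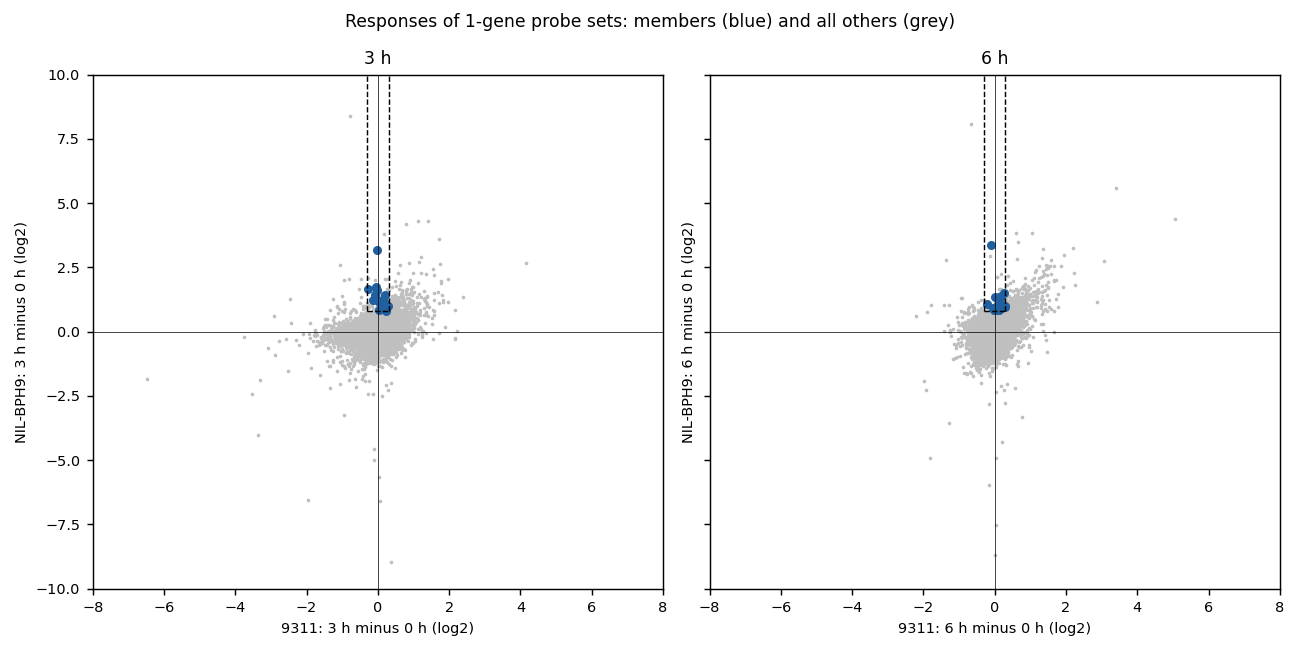
Difference from 0 h in 9311 (x axis, log2) against that in NIL-BPH9 (y axis, log2) at 3 h and at 6 h, for 1-gene probe sets with a mean of at least 7 in 1 or more groups. Blue points are the 17 members, grey points all others, and the dashed lines show the thresholds of 0.8 and 0.3; LOC4335873 lies alone at the top of the members, at 3.18 and 3.37.

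Averaged over the 17 probe sets, the log2 signal in NIL-BPH9 went from 8.16 at 0 h to 9.51 at 3 h and 9.34 at 6 h. In 9311 the same average was 8.32, 8.37 and 8.41. Single members differed from 0 h by 0.81 to 3.18 at 3 h in NIL-BPH9, with a median of 1.23, and by 0.82 to 3.37 at 6 h, with a median of 1.0. Over all tested probe sets the median difference in NIL-BPH9 was -0.02 at 3 h and -0.06 at 6 h. Every NIL-BPH9 array at 3 h lay above every NIL-BPH9 array at 0 h for 16 members, and at 6 h for 15, where 15.8% and 15.3% of all tested probe sets did so, but these contrasts chose the members. In 9311 the arrays of 3 h overlapped those of 0 h for 12 members and those of 6 h for 13, against 72.7% and 78.8% of tested probe sets. The rule bounds the 9311 means and so bears on this overlap without fixing it, and the members lay near these shares. Set against all 9 arrays of 9311, the 3 h arrays of NIL-BPH9 lay wholly above them for 13 members and so did the 6 h arrays, where 5.71% and 6.77% of tested probe sets did, and nothing is read from this, because the rule bears on these counts too. Standard errors (SE) of a difference ranged from 0.06 to 0.51 between members, so a difference near 0.8 is measured closely in some and loosely in others.

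**Figure D2:**
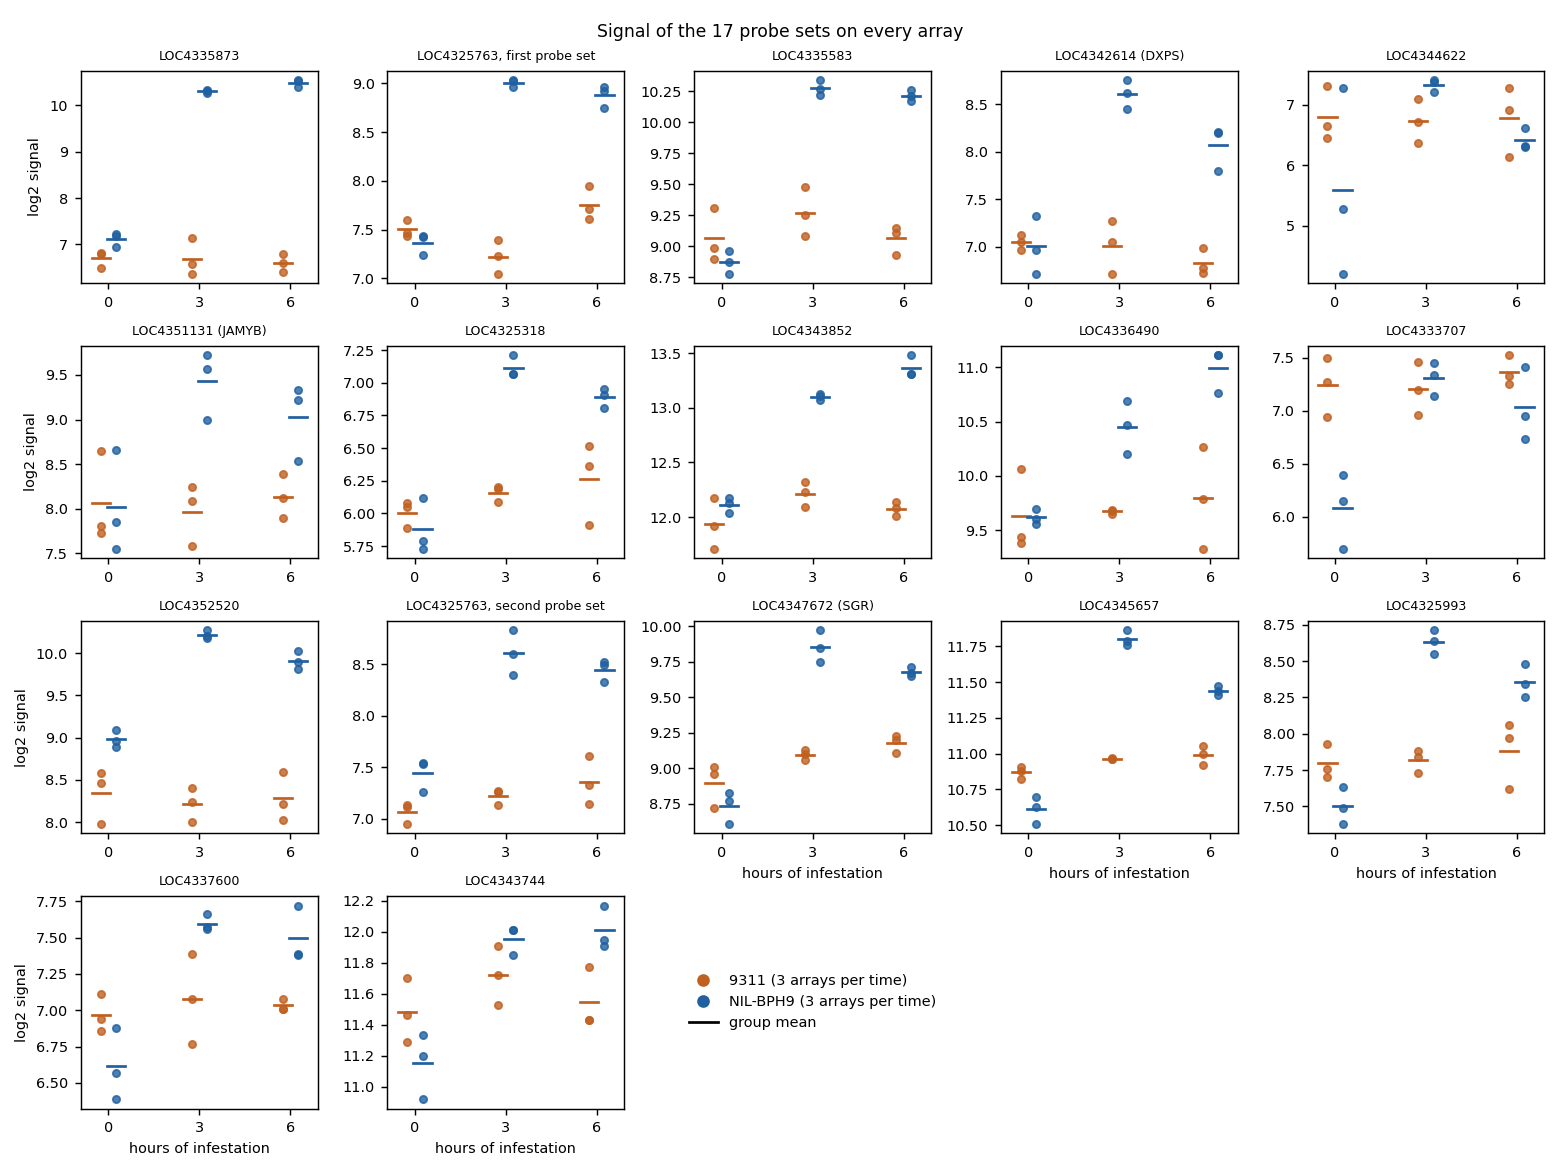
Log2 signal (y axis, a separate range in each panel) of the 17 member probe sets at 0, 3 and 6 h (x axis), with 1 point per array, 3 arrays per group, and bars at group means. In NIL-BPH9 (blue) the 3 h and 6 h points lie above the 0 h points in most panels, while LOC4344622 has 1 NIL-BPH9 array of 0 h at 7.28, as high as at 3 h.

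DXPS (LOC4342614) encodes 1-deoxy-D-xylulose 5-phosphate synthase, the enzyme of the first step of the plastid MEP pathway. In NIL-BPH9 DXPS read 7.33, 6.97 and 6.72 at 0 h, 8.75, 8.45 and 8.62 at 3 h, and 8.21, 8.20 and 7.80 at 6 h on the log2 scale. In 9311 DXPS read 7.05, 7.13 and 6.97 at 0 h, 7.27, 6.72 and 7.05 at 3 h, and 6.73, 6.99 and 6.78 at 6 h. All 6 infested NIL-BPH9 arrays lay above all other arrays, and the 9311 groups overlapped at all times. The mean in NIL-BPH9 was 3.03-fold above 0 h at 3 h (log2 1.60 ± 0.18 SE, n = 3 arrays per group) and 2.09-fold at 6 h (1.06 ± 0.18), against -0.03 ± 0.18 and -0.21 ± 0.18 in 9311. Before infestation the lines differed by -0.04 only. DXPS met the rule without any 1 of the 18 arrays and after both other scalings.

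The other genes of the MEP pathway stayed within 0.47 of 0 h in both lines. They were picked after DXPS was seen as a member, so they are set beside it without a test of the list. Of the other 6 measured, DXR, the gene of the second enzyme, rose by 0.28 ± 0.08 in NIL-BPH9 at 3 h (limma adjusted p = 0.0232) and ISPG by 0.17 ± 0.05 (0.0370), while 11.1% of all genes rose in that comparison. At 6 h DXR stood at -0.03 ± 0.08 and ISPG at -0.09 ± 0.05, and ISPE fell by 0.47 ± 0.12 (limma adjusted p = 0.0145), where 13% of genes fell. A second synthase gene listed as DXPS, CLA1 (LOC4338768), stood at 0.13 ± 0.07 at 3 h and -0.01 ± 0.07 at 6 h in NIL-BPH9. In 9311 CLA1 rose at 3 h by 0.36 ± 0.07 (limma adjusted p = 0.00092), with ISPG (0.21 ± 0.05, 0.0108) and ISPH (0.17 ± 0.05, 0.0292), where 11.2% of genes rose.

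Linalool synthase, which uses a product of the MEP pathway, missed the rule because it also rose in 9311. OsLIS (LOC4328124) rose in NIL-BPH9 by 4.29 ± 0.23 SE at 3 h and 3.83 ± 0.23 at 6 h (limma adjusted p = 1.77e-10 and 8.18e-10). In 9311 it rose by 1.13 ± 0.23 and 1.05 ± 0.23 (limma adjusted p = 0.00184 and 0.00622). HMGR3 (LOC4346017), a gene of the cytosolic isoprenoid route, rose in NIL-BPH9 at 6 h by 0.39 (limma adjusted p = 0.000385) and fell in 9311 at 3 h by 0.36 (0.000621).

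**Figure D3:**
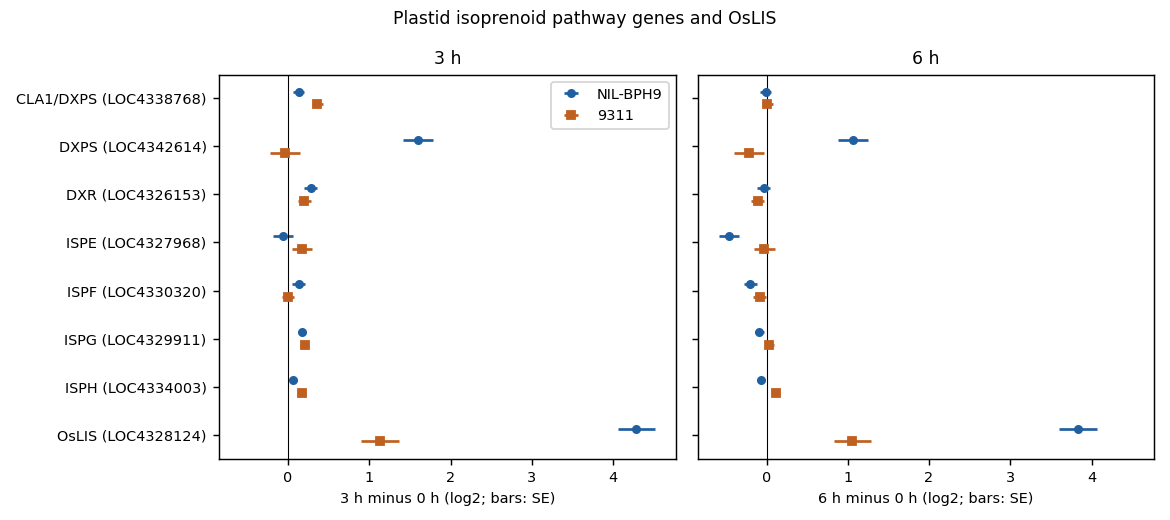
Difference from 0 h (x axis, log2, bars are SE from the limma fit, 3 arrays per group) at 3 h and 6 h for DXPS, 6 other MEP pathway genes and OsLIS. DXPS stands at 1.60 and 1.06 in NIL-BPH9 (blue) and near 0 in 9311 (orange), and the other MEP genes lie between -0.47 and 0.36 in both lines.

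JAMYB (LOC4351131) encodes a transcription factor of the MYB family, known in rice as induced by jasmonate, wounding and infection. In NIL-BPH9 JAMYB read 8.66, 7.85 and 7.55 at 0 h, 9.57, 9.72 and 9.0 at 3 h, and 9.33, 8.54 and 9.22 at 6 h. In 9311 JAMYB read 7.73, 7.80 and 8.65 at 0 h, 8.08, 7.58 and 8.24 at 3 h, and 8.12, 7.89 and 8.39 at 6 h. Its replicates were spread widely: replicate 1 of NIL-BPH9 at 0 h (8.66) lay above replicate 2 at 6 h (8.54), so these groups overlapped, and replicate 3 of 9311 at 0 h (8.65) was also high. The means in NIL-BPH9 were 2.66-fold above 0 h at 3 h (1.41 ± 0.29 SE) and 2.02-fold at 6 h (1.01 ± 0.29). Without replicate 3 of 9311 at 0 h, or without replicate 3 of NIL-BPH9 at 0 h, JAMYB no longer met the rule.

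JAMYB was 1 of 4 measured genes in a list of MYC, bHLH and MYB factors of defence, and the only one of them that was a member. BHLH148 (LOC4334060) stood 1.46 above 0 h at 3 h and 2.24 at 6 h in NIL-BPH9, with limma adjusted p of 0.000119 and 7.57e-07. In 9311 it stood at 0.64 at 3 h (limma adjusted p = 0.0571) and rose by 1.38 at 6 h (0.000412). MYB4 (LOC4336407) rose by 0.71 and 1.29 in NIL-BPH9, and in 9311 it stood at 0.26 at 3 h (limma adjusted p = 0.0984) and rose by 0.73 at 6 h (0.000103). MYBS3 (LOC4349385) stood at -0.15 and 0.26 in NIL-BPH9 and passed in none of the 4 comparisons (limma adjusted p from 0.260 to 0.678).

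SGR (LOC4347672), the stay-green gene, encodes the enzyme that takes magnesium out of chlorophyll at the start of its breakdown. In NIL-BPH9 SGR read 8.77, 8.83 and 8.61 at 0 h, 9.85, 9.97 and 9.75 at 3 h, and 9.67, 9.65 and 9.71 at 6 h. In 9311 SGR read 9.01, 8.96 and 8.72 at 0 h, 9.13, 9.10 and 9.06 at 3 h, and 9.23, 9.20 and 9.11 at 6 h. The lines overlapped at 0 h and separated at 3 h and 6 h, yet the 9311 arrays at 3 h and 6 h also lay wholly above those at 0 h. The mean in NIL-BPH9 was 1.12 ± 0.09 SE above 0 h at 3 h and 0.94 ± 0.09 at 6 h, and in 9311 it was 0.20 ± 0.09 and 0.29 ± 0.09, close to the limit of 0.3. SGR no longer met the rule with arrays centred on their medians, and a second probe set of the gene went past the limit. There the difference in NIL-BPH9 was 1.06 ± 0.08 and 0.96 ± 0.08, and in 9311 0.33 ± 0.08 and 0.41 ± 0.08, with every 9311 array at 3 h (9.75, 9.90 and 9.60) and 6 h (9.81, 9.82 and 9.86) above those at 0 h (9.48, 9.44 and 9.35). SGR was thus higher in both lines on that probe set, by a smaller amount in 9311.

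Other genes of chlorophyll breakdown, picked after SGR was seen, did not stand higher with it in NIL-BPH9. NYC1 and NOL, genes of chlorophyll b reductases, fell in NIL-BPH9 at 6 h by 0.17 ± 0.06 (limma adjusted p = 0.0416) and by 0.50 ± 0.12 (0.00754). RCCR1, a gene of a later step, stood at -0.06 ± 0.09 at 3 h and -0.11 ± 0.09 at 6 h there.

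The largest difference among the members belonged to LOC4335873. In NIL-BPH9 LOC4335873 read 7.22, 6.95 and 7.18 at 0 h, 10.27, 10.33 and 10.30 at 3 h, and 10.54, 10.40 and 10.52 at 6 h. In 9311 LOC4335873 read 6.81, 6.80 and 6.48 at 0 h, 6.57, 7.13 and 6.37 at 3 h, and 6.60, 6.80 and 6.40 at 6 h. The 6 infested NIL-BPH9 arrays spanned 10.27 to 10.54, and all other arrays lay at or below 7.22. The mean was 9.08-fold above 0 h at 3 h (log2 3.18 ± 0.17 SE) and 10.3-fold at 6 h (3.37 ± 0.17), against -0.01 and -0.10 in 9311. LOC4335873 met the rule without any 1 of the 18 arrays and after both other scalings. At 0 h the NIL-BPH9 arrays (6.95 to 7.22) already lay above the 9311 arrays (6.48 to 6.81), by 0.42. A second probe set of the gene did not show the difference: its group means lay between 5.61 and 6.02, near the array medians, and NIL-BPH9 was 0.29 and 0.35 above 0 h, with 0.22 and 0.33 in 9311.

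LOC4335583 entered through a probe set of the kind that can also bind transcripts of related genes (suffix _x_at). In NIL-BPH9 LOC4335583 read 8.96, 8.87 and 8.78 at 0 h, 10.34, 10.22 and 10.27 at 3 h, and 10.17, 10.26 and 10.21 at 6 h. In 9311 LOC4335583 read 8.90, 8.99 and 9.31 at 0 h, 9.25, 9.08 and 9.48 at 3 h, and 9.11, 8.93 and 9.15 at 6 h. The infested NIL-BPH9 arrays lay between 10.17 and 10.34 and the other 12 arrays at or below 9.48, with NIL-BPH9 1.41 ± 0.11 SE above 0 h at 3 h and 1.35 ± 0.11 at 6 h. A second probe set of LOC4335583 separated these arrays further. It was listed at 0 on the 3 NIL-BPH9 arrays of 0 h and read 8.41, 8.27 and 8.44 at 3 h and 7.90, 7.76 and 8.55 at 6 h. In 9311 it read 2.05, 0.32 and 0 at 0 h, 0 on the 3 arrays of 3 h, and 0.37, 0 and 0 at 6 h. No fold is given, because the starting level is listed at 0. This probe set failed the rule only through 9311, whose mean was 0.79 at 0 h, 0 at 3 h and 0.12 at 6 h, all far below the array medians. Both probe sets of LOC4335583 thus gave a high level in infested NIL-BPH9 sheath, and the second read near 0 in every other group.

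LOC4325763 was the only gene with 2 member probe sets. In NIL-BPH9 LOC4325763 read 7.24, 7.42 and 7.44 at 0 h, 9.02, 9.03 and 8.96 at 3 h, and 8.96, 8.92 and 8.75 at 6 h. In 9311 LOC4325763 read 7.44, 7.47 and 7.60 at 0 h, 7.23, 7.05 and 7.39 at 3 h, and 7.71, 7.95 and 7.61 at 6 h. On this first probe set the 9311 means were 0.28 below 0 h at 3 h and 0.25 above it at 6 h, near both limits of the rule, and the 3 h arrays lay wholly below and the 6 h arrays wholly above those of 0 h. The mean in NIL-BPH9 was 3.11-fold above 0 h at 3 h (1.64 ± 0.13 SE) and 2.85-fold at 6 h (1.51 ± 0.13). On the second probe set the differences were 1.17 ± 0.15 and 1.0 ± 0.15 in NIL-BPH9 and 0.16 and 0.30 in 9311. The higher level in NIL-BPH9 was seen on both, while the level below 0 h in 9311 at 3 h was seen on the first only. The first probe set no longer met the rule without any of 5 single arrays, all of 9311. The second met it in 14 of the 18 settings with 1 array left out, and failed it after quantile normalization. Both failed it when arrays were centred on their medians.

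LOC4352520 was a member that started higher in NIL-BPH9. In NIL-BPH9 LOC4352520 read 8.89, 9.09 and 8.96 at 0 h, 10.18, 10.27 and 10.21 at 3 h, and 9.81, 9.90 and 10.03 at 6 h. In 9311 LOC4352520 read 7.98, 8.46 and 8.58 at 0 h, 8.24, 8.0 and 8.40 at 3 h, and 8.22, 8.03 and 8.59 at 6 h. All NIL-BPH9 arrays lay above all 9311 arrays at each time, by 0.64 in the mean at 0 h, 2.01 at 3 h and 1.64 at 6 h. The difference from 0 h in NIL-BPH9 was 1.24 ± 0.15 SE at 3 h and 0.93 ± 0.15 at 6 h.

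LOC4343852 was a member whose NIL-BPH9 replicates lay close together. In NIL-BPH9 LOC4343852 read 12.04, 12.13 and 12.17 at 0 h, 13.11, 13.13 and 13.07 at 3 h, and 13.31, 13.48 and 13.31 at 6 h. In 9311 LOC4343852 read 11.71, 11.92 and 12.17 at 0 h, 12.32, 12.09 and 12.23 at 3 h, and 12.08, 12.01 and 12.14 at 6 h. The infested NIL-BPH9 arrays lay above all 12 others, which reached 12.32 at most. NIL-BPH9 was 0.99 ± 0.09 SE above 0 h at 3 h and 1.25 ± 0.09 at 6 h. In 9311 the difference at 3 h, 0.28, was near the limit, and without replicate 3 of 9311 at 0 h or replicate 2 at 3 h, or with arrays centred on their medians, the gene no longer met the rule.

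LOC4336490 had flat means in 9311 with scattered replicates. In NIL-BPH9 LOC4336490 read 9.60, 9.70 and 9.56 at 0 h, 10.20, 10.69 and 10.47 at 3 h, and 11.11, 11.11 and 10.76 at 6 h. In 9311 LOC4336490 read 9.44, 9.38 and 10.06 at 0 h, 9.69, 9.68 and 9.65 at 3 h, and 10.27, 9.33 and 9.79 at 6 h. In 9311 replicate 3 at 0 h and replicate 1 at 6 h stood out at 10.06 and 10.27, and the second of these lay above the lowest NIL-BPH9 array of 3 h (10.20). The difference in NIL-BPH9 was 0.83 ± 0.19 SE at 3 h and 1.37 ± 0.19 at 6 h. A second probe set read 3.34 or less on all arrays, below the array medians, and gives no course.

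LOC4325318 lay near the level limit of 7. In NIL-BPH9 LOC4325318 read 5.79, 5.73 and 6.12 at 0 h, 7.21, 7.07 and 7.07 at 3 h, and 6.95, 6.81 and 6.91 at 6 h. In 9311 LOC4325318 read 6.05, 5.89 and 6.08 at 0 h, 6.09, 6.20 and 6.19 at 3 h, and 5.91, 6.36 and 6.52 at 6 h. The infested NIL-BPH9 arrays stood apart from all others, with a difference of 1.24 ± 0.22 SE at 3 h and 1.01 ± 0.22 at 6 h. Another probe set of the gene gave 1.35 and 1.37 in NIL-BPH9 and -0.48 and 0.30 in 9311, and one more, below the array medians in 4 of 6 groups, gave 0.75 and 1.01 with -0.96 at 6 h in 9311. LOC4325318 did not meet the rule after either other scaling.

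In all, 5 of the 16 genes other than LOC4325763 had a further probe set, 6 further probe sets among them, and none of the 6 met the rule. Of these 6, those of SGR, LOC4335583 and LOC4325318 stood higher in NIL-BPH9 at both times, and those of LOC4335873 and LOC4336490 lay near or below the array medians.

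Some members differed between the lines before infestation. At 0 h the mean in NIL-BPH9 was at least 0.3 below 9311 for 4 members, at least 0.3 above it for 3 and closer than that for 10. Among all tested probe sets these shares were 18%, 19.9% and 62.1%. A low NIL-BPH9 array at 0 h helps a probe set to meet the rule, so this difference was not tested for the members. The median difference between the lines went from -0.14 at 0 h to 0.89 at 3 h and 0.90 at 6 h. All NIL-BPH9 arrays lay above all 9311 arrays at both 3 h and 6 h for 14 members, where 4.9% of tested probe sets did so, and the rule bears on that count too.

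**Figure D4:**
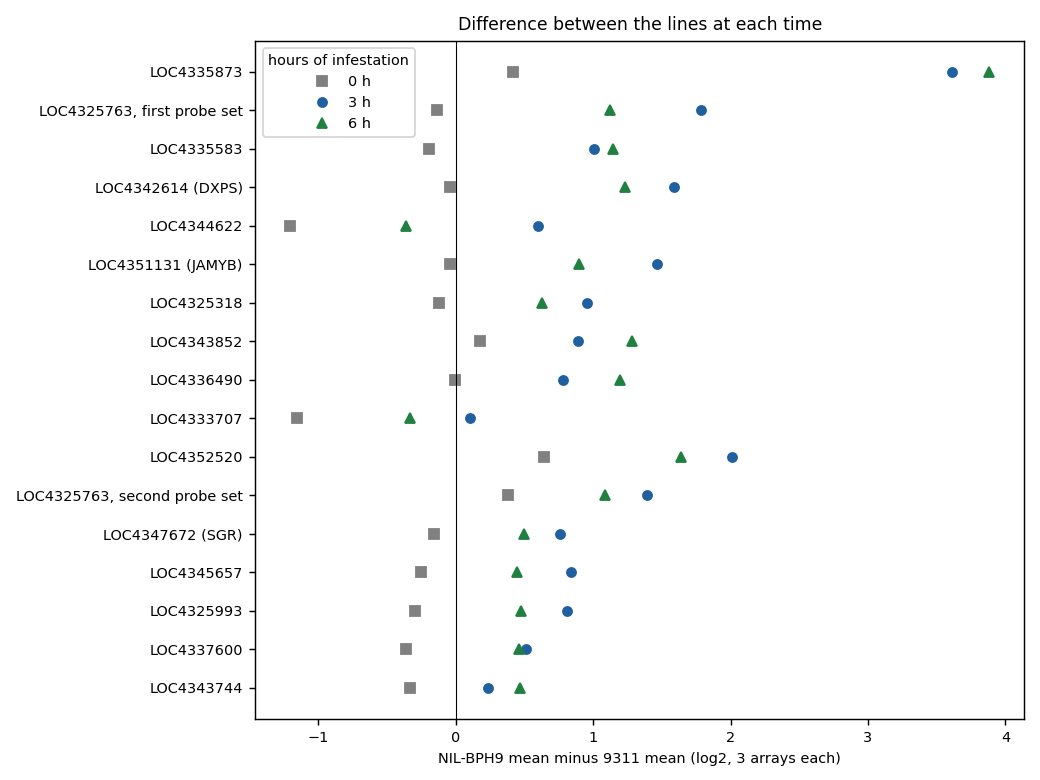
Mean of NIL-BPH9 minus mean of 9311 (x axis, log2, 3 arrays each) at 0 h (grey squares), 3 h (blue circles) and 6 h (green triangles) for the 17 members. LOC4344622 and LOC4333707 start at -1.20 and -1.15 and end below 0 at 6 h, whereas LOC4335873 goes from 0.42 to 3.88.

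LOC4333707 and LOC4344622 started furthest below 9311 among the members and had means below it again at 6 h. In NIL-BPH9 LOC4333707 read 6.39, 6.15 and 5.70 at 0 h, 7.45, 7.34 and 7.14 at 3 h, and 6.95, 6.73 and 7.41 at 6 h. In 9311 LOC4333707 read 7.27, 7.50 and 6.94 at 0 h, 7.19, 6.96 and 7.46 at 3 h, and 7.33, 7.52 and 7.25 at 6 h. At 0 h all NIL-BPH9 arrays of LOC4333707 lay below all 9311 arrays, by 1.15 in the mean, and at 3 h and 6 h the lines overlapped, with differences of 0.11 and -0.34. The difference from 0 h in NIL-BPH9 was 1.23 ± 0.22 SE and 0.95 ± 0.22.

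LOC4344622 rested on scattered arrays. In NIL-BPH9 LOC4344622 read 4.21, 7.28 and 5.28 at 0 h, 7.40, 7.37 and 7.21 at 3 h, and 6.62, 6.30 and 6.31 at 6 h. In 9311 LOC4344622 read 7.30, 6.64 and 6.44 at 0 h, 6.72, 7.09 and 6.37 at 3 h, and 6.14, 6.91 and 7.27 at 6 h. The NIL-BPH9 arrays of 0 h spanned 4.21 to 7.28 with an SD of 1.56 (n = 3), and replicate 2 among them was as high as the arrays of 3 h. At 3 h the NIL-BPH9 arrays all lay above those of 9311, by 0.60 in the mean, and at 6 h the NIL-BPH9 mean was 0.37 below that of 9311. The SE of its differences from 0 h, 1.73 at 3 h and 0.82 at 6 h, was 0.51, so the second is less than 2 SE from 0.

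The remaining 4 genes also started lower in NIL-BPH9 and ended above 9311. LOC4345657 read 10.51, 10.70 and 10.63 at 0 h in NIL-BPH9, 11.86, 11.76 and 11.79 at 3 h, and 11.44, 11.41 and 11.47 at 6 h. In 9311 LOC4345657 read 10.82, 10.91 and 10.88 at 0 h, 10.97, 10.96 and 10.96 at 3 h, and 11.05, 10.92 and 11.00 at 6 h. All its NIL-BPH9 arrays lay below 9311 at 0 h, by 0.26 in the mean, and above it at 3 h (0.84) and 6 h (0.45), with replicates so close that the SE was 0.06. LOC4325993 showed the same crossing, with line differences of -0.30, 0.81 and 0.47. LOC4337600 went from -0.36 to 0.52 and 0.46. LOC4343744 went from -0.33 to 0.24 and 0.47, with overlapping lines at 3 h. Their differences from 0 h in NIL-BPH9 lay between 0.81 (LOC4343744 at 3 h) and 1.19 (LOC4345657 at 3 h).

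The level in NIL-BPH9 at 6 h was set against that at 3 h. The rule required at least 0.8 above 0 h at both times, so a transcript that returned to its starting level by 6 h could not be a member, and the counts do not show how often a higher level was held. Of the 17 members 1 fell and 0 rose in limma's test of 6 h against 3 h, adjusted over 33094 probe sets, where 14.9% of all tested probe sets were called, 7.76% as lower and 7.17% as higher. At an unadjusted p under 0.05, 3 members were lower and 2 higher. With arrays centred on their medians the calls changed, with 2 that rose (LOC4336490 and LOC4343852) and 0 that fell. Which members were called thus depended on the scaling, while the sign of their changes did not. After quantile normalization the call was the same 1 fall as by default. LOC4345657 fell by 0.36 ± 0.06 SE (limma adjusted p = 0.000165, 3 arrays in each group), with the 3 arrays of 6 h all below those of 3 h. Its call was lost with arrays centred on their medians (-0.27, limma adjusted p = 0.0555), and over the 25 alternatives the adjusted p ranged from 8.68e-05 to 0.0555. In 13 of 17 members the 6 h mean was below the 3 h mean, a count whose share over all tested probe sets was not worked out. The median change was -0.18, against -0.06 over all tested probe sets. With median centring the latter was 0.03, and the rule filtered both means, so no fall of the members as a set is read from this.

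DXPS stood at -0.54 ± 0.18 between 3 h and 6 h in NIL-BPH9 (limma adjusted p = 0.0578, from 0.0418 to 0.234 over the alternatives). LOC4336490 and LOC4343852 stood at 0.54 ± 0.19 (0.0674) and 0.26 ± 0.09 (0.0558) by the same limma adjustment, both in the other direction, with adjusted p from 0.00711 to 0.251 and from 0.00493 to 0.219 over the alternatives. These 3 were called in 5 of 25 alternatives each. With only the NIL-BPH9 arrays in the fit, 4 members were called, 2 in each direction. LOC4335873 stood at 0.19 ± 0.17 and JAMYB at -0.40 ± 0.29 (limma adjusted p = 0.536 and 0.433), and neither was called.

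**Figure D5:**
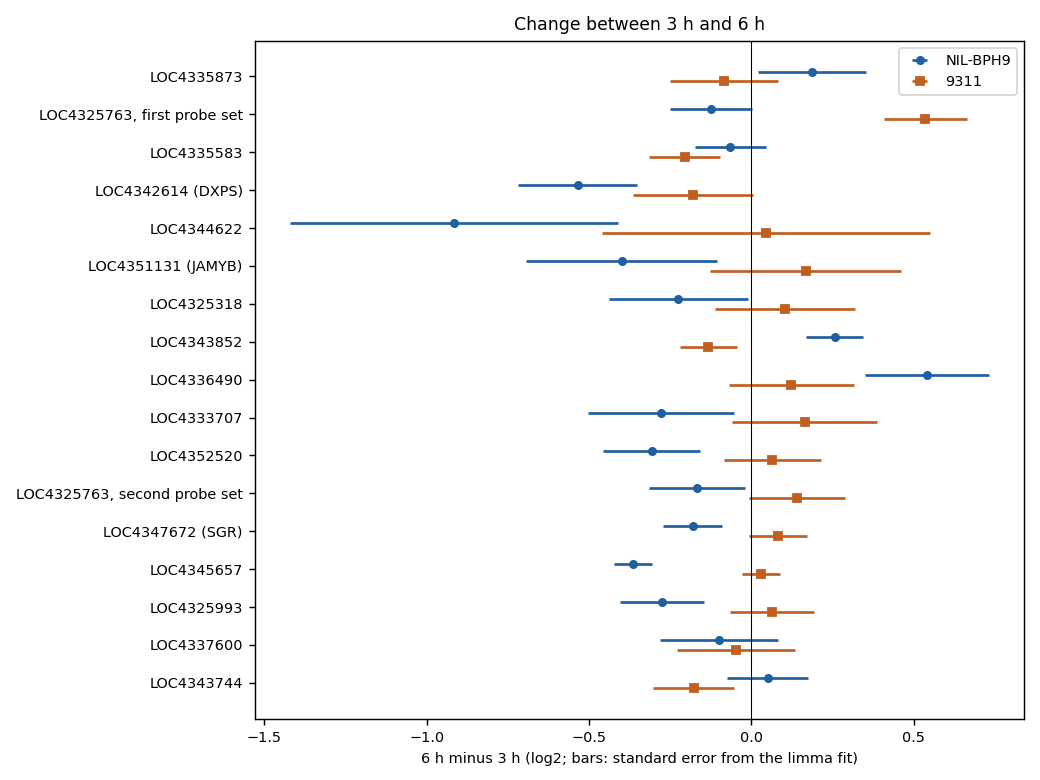
Change from 3 h to 6 h (x axis, log2, bars are SE from the limma fit) in NIL-BPH9 (blue) and 9311 (orange) for the 17 members, 3 arrays per group. LOC4345657 at -0.36 has the smallest error bar, and LOC4344622 at -0.92 the widest.

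The lines were also compared in their change from 3 h to 6 h, a difference built from the 3 h and 6 h means that the rule filtered in both lines. Of the 17 members 2 passed limma's interaction test, both with the lower change in NIL-BPH9, where 4.38% of tested probe sets were called, 2% in that direction and 2.38% in the other. With median centring none was called, and 3 had an unadjusted p under 0.05 in limma. LOC4345657 differed by -0.39 ± 0.08 SE (limma adjusted p = 0.00696), with -0.36 in NIL-BPH9 and 0.03 in 9311, and the call was lost with median centring (-0.36, limma adjusted p = 0.211, from 0.00363 to 0.211 over the alternatives). At an unadjusted p under 0.05, 2 members were lower and 1 higher. The first probe set of LOC4325763 differed by -0.66 ± 0.18 (limma adjusted p = 0.0412), with -0.13 in NIL-BPH9 and 0.54 in 9311. Its call was lost in 15 of 24 alternatives, among them 11 of the 18 with 1 array left out (limma adjusted p from 0.0281 to 0.217), and the second probe set of the gene stood at -0.31 ± 0.21 (0.530).

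Some probe sets lay close to a threshold. Just inside lay the second probe set of LOC4325763 (9311 at 6 h 0.30, by 0.002), LOC4343744 (NIL-BPH9 at 3 h 0.81) and SGR (9311 at 6 h 0.29). Just outside lay LOC4323880 (NIL-BPH9 at 3 h 0.80, short by 0.001), LOC4340490 (NIL-BPH9 at 6 h 0.80, short by 0.005) and LOC4327666 (9311 at 6 h 0.31). LOC4340490 is listed as OPR1, an oxophytodienoate reductase gene of the jasmonate-linked family, and stood at 1.20 and 0.80 in NIL-BPH9 and at 0.00 and 0.20 in 9311.

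Membership depended on single arrays for most genes. Of the 17 members 2, LOC4335873 and DXPS, met the rule in all 18 settings with 1 array left out, and the lowest was LOC4343744 with 12. After quantile normalization 15 met it and after median centring 12. Replicate 3 of 9311 at 0 h mattered for the total: without it 11 probe sets met the rule.

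By pattern over the 6 group means, the probe sets most like the members' average were described by correlation. They were LOC4345993 (r = 0.994), LOC4348863 (0.993), LOC4349251 (0.992), LOC4334137 (0.990) and LOC4336795 (0.988), each over 6 group means that share the same arrays. LOC4345993, listed as LOX8 and CM-LOX1, is a lipoxygenase gene. It stood at 1.45 ± 0.49 SE and 1.17 ± 0.49 above 0 h in NIL-BPH9, and neither was called (limma adjusted p = 0.0558 and 0.105). In 9311 it stood at 0.19 and 0.15, and it missed only the level of 7 with a highest mean of 6.72. LOC4348863 stood at 2.03 and 1.81 in NIL-BPH9 and at 0.21 and 0.34 in 9311, past the limit at 6 h. The other 3 differed from 0 h by 0.61 or less in NIL-BPH9.

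A further 7 probe sets without a gene in the annotation met the same thresholds. In 6 of them the NIL-BPH9 mean was at least 0.3 below that of 9311 at 0 h, where 18% of all tested probe sets were. The one with the widest gap read 4.84 in NIL-BPH9 against 8.61 in 9311 at 0 h in the mean, and 7.64 against 8.69 at 6 h. For the next, the difference of NIL-BPH9 from 9311 went from -3.25 at 0 h to -0.81 at 6 h, and for another from -2.87 to -0.27. For these 3 the mean in NIL-BPH9 stayed below that of 9311 at all times. A low NIL-BPH9 mean at 0 h helps a probe set to meet the thresholds, so nothing is read from the count of 6.

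The member genes were not close neighbours of one another. Whether any of them lies near BPH9, or in another stretch that differs between the lines, was not examined here. In the gene order of the RefSeq table the closest pair, LOC4343744 and LOC4343852, had 133 genes between them, and the next, LOC4335583 and LOC4335873, had 365.

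Jasmonate synthesis genes are the textbook companions of JAMYB, and none of those on the list used here was a member. Of 14 measured on this list, limma called 10 as risen in NIL-BPH9 at 3 h and 6 at 6 h, and in 9311 4 and 3. Among all genes 11.1%, 12.2%, 11.2% and 6.37% rose in these comparisons. The 10 took in OPR1, OPR4 and OPR5, family members whose part in jasmonate synthesis was not examined. The median difference of the 14 was 0.66 and 0.49 in NIL-BPH9 and 0.28 and 0.25 in 9311, against medians between -0.02 and 0.01 over all genes. LOX2 (LOC4331824) rose in NIL-BPH9 at 3 h by 0.44 (limma adjusted p = 0.00259) and stood at 0.04 in 9311 (0.845). AOS1 (LOC4334233), an allene oxide synthase gene, rose in both lines at 3 h, by 1.21 and 0.96 (limma adjusted p = 1.27e-09 and 3.98e-08). The list also holds OPR1 and LOX8, described above, which came close to the rule. OPR1 was short by 0.005 at 6 h in NIL-BPH9. LOX8 missed only the level of 7, but limma called neither of its differences in NIL-BPH9.

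Of 5 measured WRKY factors 3 rose at 3 h and 4 at 6 h in NIL-BPH9, and 1 and 3 in 9311, by the same limma calls. WRKY62 (LOC4347070) came near the members at 3 h, with 1.41 in NIL-BPH9 and 0.12 in 9311 (limma adjusted p = 0.000148 and 0.812), and it rose in 9311 at 6 h by 0.77 (0.0358). Of 15 phenylpropanoid and lignin genes 8 rose in NIL-BPH9 at 3 h, and 6 rose and 2 fell in 9311, where 10.4% of all genes fell. Of 6 salicylate genes 1 rose at 3 h and 4 rose and 1 fell at 6 h in NIL-BPH9, with 1 and 2 that rose in 9311.

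The genes of diterpene phytoalexins, antimicrobial compounds of rice, included no member. Of 11 measured, 3 rose in NIL-BPH9 at 3 h and none was called at 6 h, where 1 had an unadjusted p under 0.05 in limma. CYP99A2 and CYP99A3 of the momilactone branch rose at 3 h by 0.98 and 1.14 (limma adjusted p = 0.00199 and 0.00133) and stood at -0.16 and 0.08 in 9311. CYP71Z7 rose in NIL-BPH9 at 3 h by 0.89 (limma adjusted p = 0.00686) and fell in 9311 by 0.93 (0.00453). In 9311 1 of the 11 rose and 1 fell at 3 h, and 1 rose and 2 fell at 6 h, where 4.74% of all genes fell.

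The remaining lists gave smaller or mixed counts, and none held a member. Of 8 phenolamide and tryptamine genes 3 rose at 3 h and 2 at 6 h in NIL-BPH9, and in 9311 1 fell at 3 h and none was called at 6 h, where limma gave 1 lower at an unadjusted p under 0.05. Of 3 proteinase inhibitor genes 2 rose and 1 fell in NIL-BPH9 at each time, and all 3 rose in 9311. Of 7 chitinase and other pathogenesis-related genes 3 rose at each time in NIL-BPH9, and in 9311 3 rose and 1 fell at 3 h and 2 rose at 6 h. Of 10 ethylene and ERF genes 2 rose and 4 fell at 3 h in NIL-BPH9, where 8.66% of all genes fell, and 4 rose at 6 h, and in 9311 2 rose and 2 fell at 3 h and 4 rose at 6 h. Of 4 chitin and lectin receptor genes 1 rose and 1 fell in NIL-BPH9 at 6 h, and 1 fell in 9311 at 3 h.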

How the data were processed

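Total RNA of rice leaf sheath was hybridised to 18 Affymetrix 1-colour arrays, and the values used are the log2 signals deposited by the authors. They were made with MAS5, per the submitters' processing notes, with its version not given in the sources used here and its settings likewise. Each array was scaled to 1 trimmed mean, as read from the values, and MAS5 signals near the array median may hold mostly background. The number of arrays limits the precision.

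Groups came from the labels. Control probe sets (187) were left out. Genes were named through the platform annotation and the RefSeq gene table of GCF_034140825.1 ASM3414082v1, used for names and gene order only. It describes no functions, so a planned grouping by description was not made, and no sequences were printed. Group means and the rule gave the members. For tests, probe sets at or above the array median on at least 3 arrays were fitted with limma 3.58.1 in R 4.3.3 as 6 group means over 18 arrays (eBayes with trend, Benjamini-Hochberg, threshold 0.05), a step that was tested on simulated data. Lists used the brightest probe set of a gene. Standard errors are limma's.

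The members and lists were chosen with earlier results of these data known, and the MEP and chlorophyll lists after the members were seen. Values of every array are given for the 12 genes with the largest mean difference in NIL-BPH9 and for members called between 3 h and 6 h. Alternatives were other scalings, filters, thresholds, eBayes without trend, a replicate block, the NIL-BPH9 arrays alone and each array left out.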

Additional observations from a re-analysis of the deposited data

Results flagged for a closer look

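In 2 members the change from 3 h to 6 h differed between the lines by limma's interaction test. For LOC4345657 the difference (NIL-BPH9 minus 9311) was -0.39 on the log2 scale, and all 3 NIL-BPH9 arrays of 6 h lay below those of 3 h. For the first probe set of LOC4325763 it was -0.66, and there the change lay in 9311, whose arrays read 7.23, 7.05 and 7.39 at 3 h and 7.71, 7.95 and 7.61 at 6 h. The rule filtered the 3 h and 6 h means of both lines, so this test draws on values that chose the members. With arrays centred on their medians neither was called (limma adjusted p = 0.211 for LOC4345657 and 0.217 for LOC4325763), and LOC4325763 lost its call in 15 of 24 alternatives.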

How the results depend on the processing

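The count of members called between 3 h and 6 h in NIL-BPH9, 1 by default, was 2 with median centring (both rose, none shared with the default), 4 with only NIL-BPH9 arrays and 3 with the stricter filter. It ranged from 1 to 4 with 1 array left out, was 4 without replicate 3 of 9311 at 0 h, and was 2 without replicate 1 of 9311 at 0 h, replicate 2 at 3 h or replicates 1 or 2 at 6 h, or without replicates 1 or 3 of NIL-BPH9 at 0 h. The count of line differences in that change, 2 by default, was 0 with median centring (3 at an unadjusted p under 0.05 in limma), 1 with no filter, quantile normalization or the replicate block, and 1 to 3 with 1 array left out. It was 1 without replicate 2 of 9311 at 0 h, replicates 1 or 2 of 9311 at 3 h or 6 h, or any infested NIL-BPH9 array. Median centring moved the median of all probe sets from -0.06 to 0.07 for 6 h against 0 h in NIL-BPH9. Of 17 probe sets that met the rule, 7 were left with a rise of at least 1.0 and 9 with 9311 limits of 0.2, and leaving out 1 array gave 11 to 22. Members lower in NIL-BPH9 at 0 h numbered 2 to 5 (2 without replicate 3 of 9311 at 0 h), and those higher at both later times 14 to 15. Same-numbered replicates did not deviate together (correlations from -0.1068 to 0.0662), so the numbers were not taken as pairs, and the replicate block left 1 call in NIL-BPH9. Over single members, 440 of the other values kept their side of the threshold, 17 lost and 16 gained a call, and none that was called changed sign. Where the cause of a change was not the construction of the alternative, it was not tested.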
